A study of Mus musculus with 2 samples.

Results

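Nuclear receptors are transcription factors that bind small lipid-soluble ligands such as fatty acids, bile acids, oxysterols, retinoids and steroid hormones, and change the transcription of the genes they bind. The genes of this family, without the receptors of the circadian clock, were taken as a fixed list of 38 symbols. A gene was included when the array's annotation gave at least 1 probe set (a group of short probes against a transcript) that carried its symbol alone. This held for 37 of the 38 genes, out of 18193 genes named in this way, and the 37 genes had 96 of the 45101 probe sets of the array. Nr1h2 (LXRβ) had no probe set named for it alone and is not analysed here.

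Liver RNA came from male C57Bl/6J mice, 9 weeks old at the outset, that were kept for 112 days on food poor in n-3 polyunsaturated fatty acids, in which sunflower oil replaced soybean oil and the n-6/n-3 ratio was 127.2. The DEF/FOS group stayed on this diet and drank fructooligosaccharides (FOS, a fibre fermented by gut bacteria), 0.25 g daily, for the last 10 days. The DEF/CT group was returned for the last 10 days to the control diet with soybean oil, with a ratio of 6.9. Both groups therefore share the preceding n-3 depletion, and they differ in the fibre and in the oil at once, so that no difference can be assigned to either. RNA of the mice of a group was pooled in equal amounts (8 mice per group in the treatment protocol, a range of 4 to 8 in the extract protocol), and each pool was measured on 1 Affymetrix GeneChip array. With 1 array per group no difference has a replicate check, an error between animals or a p-value.

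In the liver, many of these receptors bind DNA as a pair with an RXR. PPARα senses fatty acids and drives their oxidation, LXRα senses oxysterols, FXR senses bile acids and induces the repressor SHP, and CAR and PXR sense foreign compounds. HNF4α holds up the hepatocyte programme as a whole, and the glucocorticoid receptor carries the signal of stress and fasting hormones.

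Values are MAS5 signals, a linear brightness per probe set. The signal of a gene is that of its brightest probe set, and a difference is the log2 signal of the DEF/FOS pool minus that of the DEF/CT pool, centred on the median of all probe sets above a signal floor of 19.4. This floor is the median over all probe sets and not a detection call. Of the 37 receptor genes 31 lay above it. Over all probe sets, the DEF/FOS pool had a median signal of 19.6 and the DEF/CT pool one of 21.9. Hepatocyte markers differed little between the pools (Alb 11023 and 11303, median difference -0.03 over 6 of 8 listed markers), but 5 of these 6 had negative differences. The largest were -0.22 for Cps1 (7490 and 8815), -0.17 for Asgr1 (1817 and 2067) and -0.04 for Apoa1. All 10 skeletal muscle markers were lower in the DEF/FOS pool by 2-fold or more, and 8 of them lay below the floor there, with a summed signal of 111 against 2514. All 8 Kupffer cell markers had positive differences (summed signal 3862 against 3185, median 0.24). The 3 of 5 neutrophil markers above the floor also had positive differences (summed signal of all 5 293 against 113, with Camp and Ltf below the floor in both pools), and the 3 of 5 B and plasma cell markers above the floor had negative ones (summed signal of the 4 named markers 112 against 201). Stellate, liver endothelial and cholangiocyte markers had median differences of -0.06, 0.06 and 0.51, the last at summed signals of 125 and 92.4. In such pools of whole liver, fewer cells of a type and less RNA per cell cannot be told apart. The part of these other cell types in the receptor values was not tested.

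RefSeq promoter windows (mouse build GRCm38.p6) were at hand for 34 of the 38 genes, with 54 transcription starts, and not for Thra, Hnf4g, Nr3c1 and Nr5a1. The sequences show the 2 brightest receptors, SHP, and some of the receptors whose upstream sequence holds the half-site AGGTCA that many members of this family bind. Each line gives 100 bases, 5′ to 3′ on the gene's strand, with capitals marking AGGTCA or the core promoter motif TATAAA on either strand. Except for Nr1h4 and Thrb, where bases 250 to 151 before the start are shown, each line ends at the base before the start.
Ppara, chr15:85735676-85735775, + strand: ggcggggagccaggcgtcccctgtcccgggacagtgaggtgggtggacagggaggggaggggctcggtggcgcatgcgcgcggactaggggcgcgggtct
Hnf4a, first window, chr2:163506757-163506856, + strand: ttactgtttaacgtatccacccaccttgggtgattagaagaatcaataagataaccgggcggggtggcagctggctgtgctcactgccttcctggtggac
Hnf4a, second window, chr2:163547055-163547154, + strand: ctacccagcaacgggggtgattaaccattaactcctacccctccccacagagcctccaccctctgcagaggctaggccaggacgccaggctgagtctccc
Nr0b2, chr4:133553276-133553375, + strand: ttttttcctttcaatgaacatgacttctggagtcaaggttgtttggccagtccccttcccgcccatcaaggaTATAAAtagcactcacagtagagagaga
Rxra, second window, chr2:27709192-27709291, + strand: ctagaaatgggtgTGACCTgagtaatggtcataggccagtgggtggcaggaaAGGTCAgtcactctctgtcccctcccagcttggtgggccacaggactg
Pparg, first window, chr6:115361044-115361143, + strand: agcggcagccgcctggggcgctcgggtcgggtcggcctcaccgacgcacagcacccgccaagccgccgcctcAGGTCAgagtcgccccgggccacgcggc
Pparg, second window, chr6:115362249-115362348, + strand: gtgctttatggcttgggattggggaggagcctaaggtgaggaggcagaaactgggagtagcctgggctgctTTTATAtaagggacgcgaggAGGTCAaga
Nr1h4, chr10:89506809-89506908, - strand: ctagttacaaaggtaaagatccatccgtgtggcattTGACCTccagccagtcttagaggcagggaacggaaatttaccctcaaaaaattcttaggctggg
Thrb, first window, chr14:17660710-17660809, + strand: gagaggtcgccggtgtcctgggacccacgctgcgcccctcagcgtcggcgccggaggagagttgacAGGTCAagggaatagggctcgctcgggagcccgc

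The half-site AGGTCA lay within 250 bases before the start, on either strand, in 9 of the 54 receptor windows, or 16.7%, against 14.0% of 32851 windows of all genes. In the second window of Rxra it began 87 and 48 bases before the start, in 2 windows of Pparg 28 and 9 bases, in Thrb 184 and in Nr1h4 214 bases before it. Receptors with the half-site whose sequence is not shown were Nr5a2 (64 bases before the start), Rxrg (88), Nr6a1 (91 and 45) and Rarg (225). TATAAA was present in 7 of the 54 windows, 13.0%, against 12.4% of all windows, and began 28 bases before the start of Nr0b2. The extended half-site TCAAGGTCA, which contains AGGTCA, was in 0 of 54 windows against 0.387% of all. The half-site repeated in the same direction with a gap of 1 base or of 4 bases, and the inverted repeat with a gap of 1 base, were also in 0 of 54 windows against 0.0335%, 0.0152% and 0.00609% of all. Motifs this rare would be missing from most sets of 54 windows, so these counts of 0 say nothing about receptor genes. The receptor windows had a median G and C content of 59.6% against 52.4% over all windows, with 76.4% for Ppara and 50.0% for Nr0b2. These matches describe the letters of the windows and show no binding.

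Hnf4a, which encodes the main regulator of hepatocyte identity, had the highest signal of the family, with 3233 for DEF/FOS and 2745 for DEF/CT, above 98.4% of all genes. Ppara followed at 963 and 1300, and Rxra, the common partner, at 675 and 721. Next in order were Nr1h4 (FXR), Nr0b2 (SHP), Nr3c1 (the glucocorticoid receptor), Nr5a2 (LRH-1, a regulator of bile acid genes), Nr4a1, Nr1i3 (CAR) and Nr2c2 (TR4). These 10 genes had mean signals from 2979 down to 304, and the last of them lay above 83.8% of all genes. The order is one of array signals, since probe sets differ in how brightly they report a transcript, and it does not rank transcript amounts. Neighbours such as Nr1h4 and Nr0b2, at mean signals of 594 and 575, differed by less than either gene differed between the pools.

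**Figure D1:**
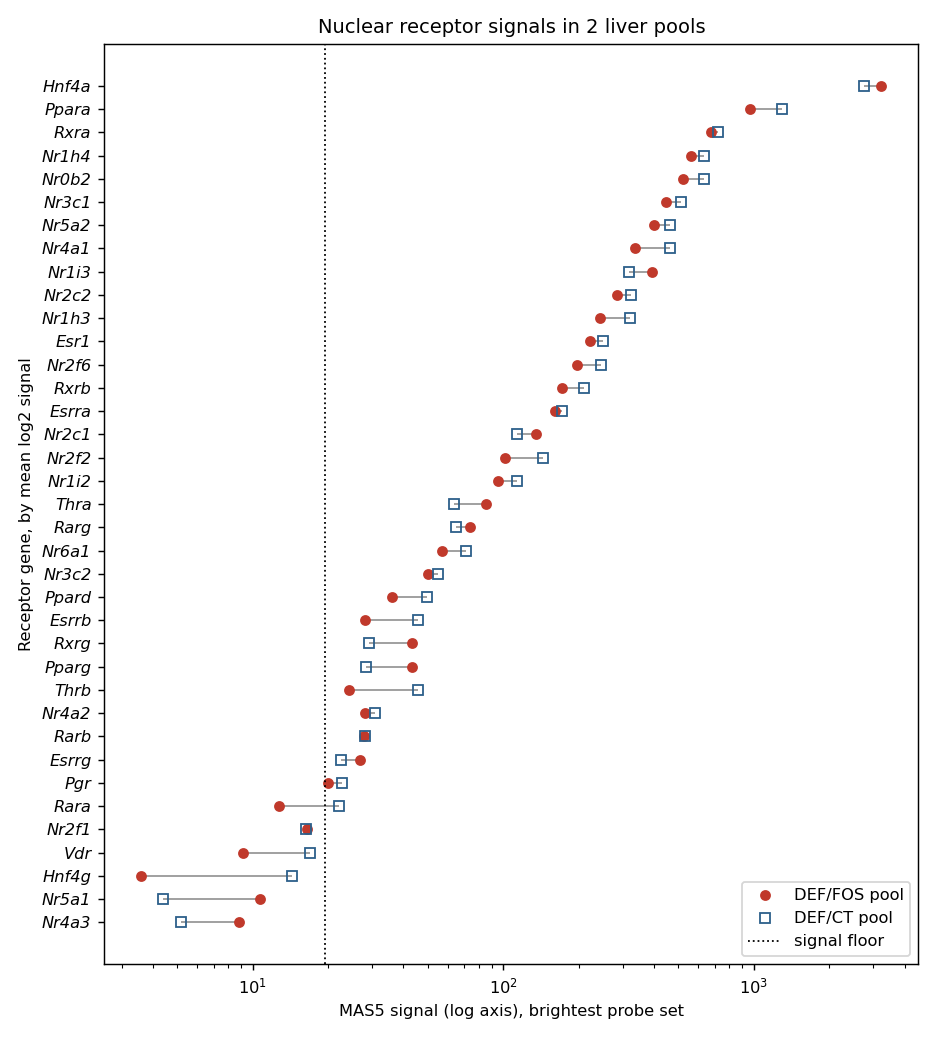
MAS5 signal (log axis) of the brightest probe set of 37 nuclear receptor genes, ordered by mean log2 signal, with the DEF/FOS pool as filled circles, the DEF/CT pool as open squares and the floor of 19.4 as a dotted line; each point is 1 array. The order runs from Hnf4a at 3233 and 2745 to Nr4a3 at 8.83 and 5.17, and for most receptors above a signal of 122 the circle lies left of the square.

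The middle of the order held Nr1h3 (LXRα), Esr1, Nr2f6, Rxrb, Esrra, Nr2c1, Nr2f2, Nr1i2 (PXR), Thra, Rarg, Nr6a1 and Nr3c2, with mean signals from 280 to 52.3. Ppard, Esrrb, Rxrg, Pparg, Thrb, Nr4a2, Rarb, Esrrg and Pgr lay between 42.4 and 21.3, close to the floor. The 6 genes below the floor were Rara (12.8 in the DEF/FOS and 22.1 in the DEF/CT pool), Nr2f1 (16.5 and 16.4), Vdr (9.13 and 16.9), Hnf4g (3.59 and 14.4), Nr5a1 (10.7 and 4.39) and Nr4a3 (8.83 and 5.17). Their differences are not read here, and a low signal of a probe set does not show that the gene is silent.

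Between the pools the receptor genes differed little. Above the floor 2 of 31 were higher in the DEF/FOS pool by 1.5-fold or more, 6.45% of them, where 6.75% of all 11163 genes above the floor were. As many, 2 of 31, were at least 1.5-fold lower, where 7.82% of all genes were. None of the 31 reached 2-fold, against 1.74% of all genes on the higher and 2.19% on the lower side. The 4 genes past 1.5-fold, Pparg, Rxrg, Thrb and Esrrb, all had mean signals under 36, where single probe sets scatter most: probe sets for the same gene differed with an SD of 0.57 on the log2 scale at signals of 19.5 to 49.0 and of 0.14 at signals above 324. That SD covers neither animals nor arrays.

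Small negative differences prevailed. Of the 31 genes 22 had lower signal in the DEF/FOS pool, 71.0%, against 50.0% of all genes, and the median difference was -0.17 with quartiles of -0.31 and 0.10, where all genes had quartiles of -0.24 and 0.22. Among the 16 receptor genes at signals above 122, the median of the genes above the floor, the difference was negative for 13, or 81.2%, where 45.7% of all 5581 such genes were. Of these, 0 of 16 passed 1.5-fold, against 3.44% of genes higher and 2.37% lower in the DEF/FOS pool. The share of 81.2% holds for the brightest probe sets and depends on that choice. Nr2c2, Nr2f6, Esr1 and Esrra, all negative by this reading, were positive when probe sets above the floor were summarised by their median. Their differences were then 0.30, 0.12, 0.12 and 0.01. By its brightest probe set, no receptor lay outside the central 95% of the genes in its signal range (4 ranges with equal numbers of genes). This ran from -0.56 to 0.61 in the brightest range and from -1.35 to 1.13 in the dimmest. A further probe set of Nr5a2, at 163 against 319, had a difference of -0.95. That is beyond the -0.59 to 0.70 of genes at signals of 122 to 324.

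**Figure D2:**
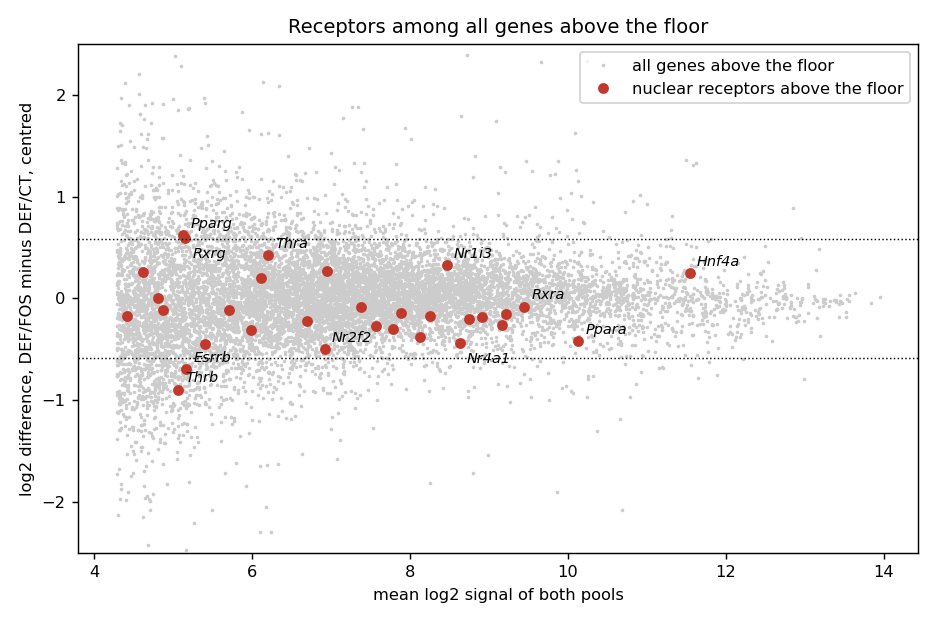
Centred log2 difference (DEF/FOS minus DEF/CT) against the mean log2 signal of both pools, with 11163 genes above the floor in grey and 31 receptor genes in red; dotted lines mark 1.5-fold, and 24 genes lie beyond the vertical range of 2.5. Each gene is shown by its brightest probe set. The spread of all genes narrows with signal, the receptors stay within it, and those past 1.5-fold (Pparg, Rxrg, Thrb, Esrrb) lie at the dim end.

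Among the sensors of fatty acids, oxysterols and bile acids, the brightest probe set of Ppara read 963 for DEF/FOS and 1300 for DEF/CT. Its 2 further probe sets had 696 against 936 and 588 against 842. All 3 were lower in the DEF/FOS pool, with differences from -0.50 to -0.41, or 1.34-fold by the brightest. These probe sets read the same 2 pools, so they are no replicates. The SD of 0.14 between probe sets of 1 gene at this brightness likewise covers neither animals nor arrays. The difference of the brightest probe set lay inside the central 95% of genes in its signal range, -0.56 to 0.61. Nr1h3, the oxysterol receptor LXRα, was 1.30-fold lower at 244 against 321, and Nr1h4, the bile acid receptor FXR, 1.12-fold lower at 560 against 631, each by 1 probe set. Ppard, a fatty acid receptor found in most tissues, had 36.1 and 49.8. Pparg, the regulator of fat storage best known from adipose tissue, differed in the other direction at 43.2 against 28.3, 1.54-fold, a dim signal read by a single probe set.

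The RXR partners showed no common direction. Rxra had 675 and 721, a difference of -0.08 with -0.10 in its other probe set above the floor, and Rxrb had 171 and 210, 1.21-fold lower. Rxrg, a form known mainly from muscle and brain, had 43.4 and 29.0, 1.51-fold higher for DEF/FOS, the pool in which skeletal muscle markers were far lower. The part of muscle RNA in this dim signal was not tested.

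Of the xenobiotic sensors, Nr1i3 (CAR) had higher signal in the DEF/FOS pool, 393 against 317 or 1.25-fold, by 1 probe set. Nr1i2 (PXR) had 95.7 and 113, a difference of -0.23, but 0.07 in its other probe set. CAR was thus among only 3 of the 16 brighter receptors with a positive difference by the brightest probe set, beside Hnf4a and Nr2c1.

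By its brightest probe set Hnf4a was 1.19-fold higher for DEF/FOS, and its 4 probe sets all had positive differences, from 0.25 to 0.53. The signals of the other probe sets were 1417 against 1204, 1265 against 887, and 326 against 249. RefSeq gives Hnf4a the 2 starts printed above, and the annotation does not tie the probe sets to a start. Of the orphan receptors near it, Nr2f2 (COUP-TFII, a receptor of venous endothelium and mesenchyme) had 101 and 145, 1.41-fold lower. All 5 of its probe sets above the floor were negative, from -1.08 to -0.04. The liver endothelial markers had a median difference of 0.06 and the stellate markers one of -0.06, and the part of these cells in the Nr2f2 signal was not tested. Nr2c1 (TR2) had 135 and 113, and Nr2c2 (TR4) 285 and 324, each with probe sets of both signs. The probe sets of Nr2f6, a COUP-TF relative, were of like brightness and opposite sign, 197 against 246 and 200.3 against 139.6.

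**Figure D3:**
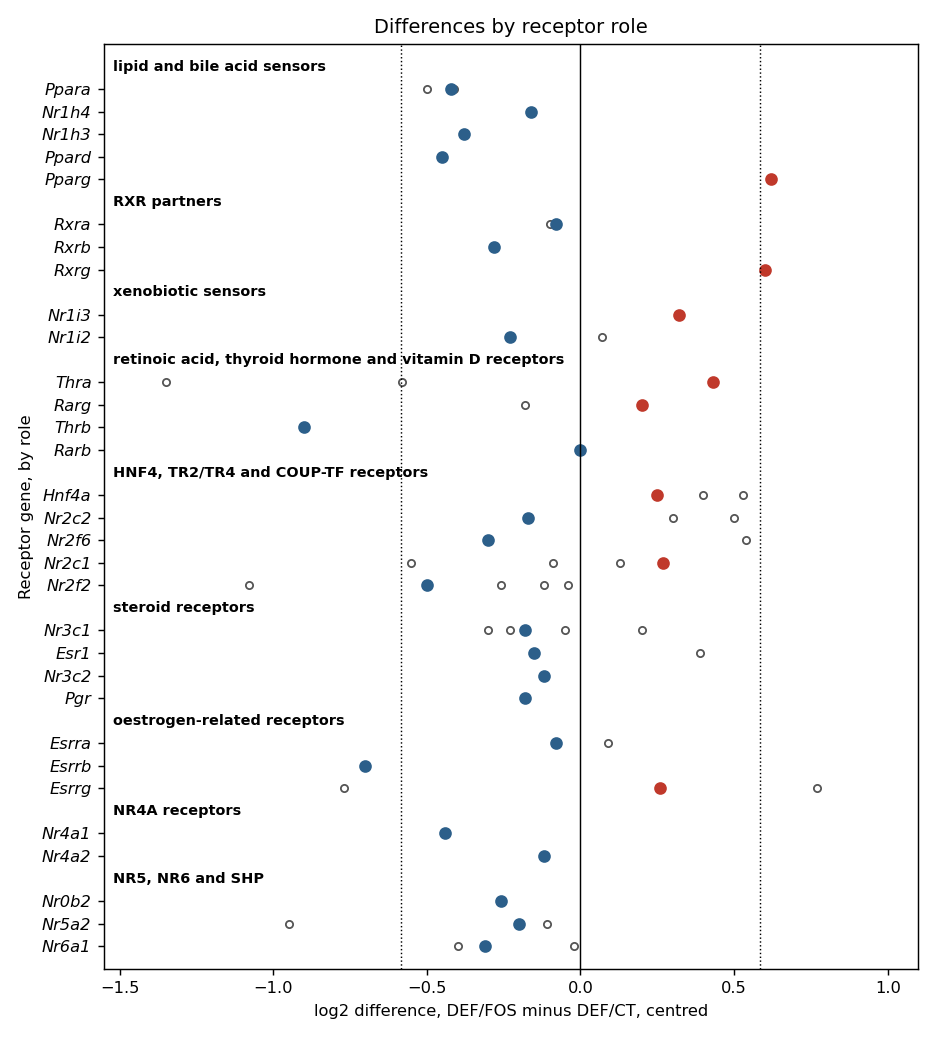
Centred log2 difference (DEF/FOS minus DEF/CT) of 31 receptor genes grouped by role, with the brightest probe set as a filled point (red above 0, blue otherwise), further probe sets above the floor as open circles and 1.5-fold as dotted lines. Hnf4a is positive in all 4 probe sets and Ppara negative in all 3, while Thra, Esrrg and Nr2f6 have probe sets on both sides of 0.

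All 4 steroid receptors had small negative differences by their brightest probe sets. Nr3c1, the glucocorticoid receptor, had 448 and 514, 1.14-fold lower in the DEF/FOS pool, with 4 of 5 probe sets above the floor negative. Esr1, the oestrogen receptor, had 223 and 249, with a positive difference of 0.39 in its other probe set above the floor. Nr3c2, the mineralocorticoid receptor, had 50.0 and 54.7, and Pgr, the progesterone receptor, lay at the floor with 20.0 and 22.8. Of the oestrogen-related receptors, which work with PGC-1 coactivators on mitochondrial genes, Esrra had 161 and 172. Esrrb had 28.0 and 45.8, 1.62-fold lower by a probe set whose identifier marks possible matches to several transcripts, and Esrrg 26.7 and 22.5 with differences from -0.77 to 0.77 over 3 probe sets.

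The receptors for thyroid hormone and retinoic acid were dim and did not move together. Thrb, the main thyroid hormone receptor of hepatocytes, had 24.3 in the DEF/FOS and 45.7 in the DEF/CT pool, 1.86-fold lower and the largest difference of the family, by 1 probe set. The probe sets of Thra disagreed: the brightest had 85.0 and 63.8, the others 41.4 against 62.5 and 18.4 against 47.5, so that differences ran from -1.35 to 0.43. Thra is also expressed in skeletal muscle, whose markers were lower in the same pool, but the part of muscle RNA in these values was not tested. Rarg had 73.8 and 64.8, and Rarb 27.8 and 28.0.

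Nr4a1, an inducible orphan receptor of the immediate early response, had 337 and 463, 1.36-fold lower in the DEF/FOS pool by 1 probe set. Immediate early genes as a list did not share this direction: 6 of 10 had positive and 4 negative differences, with a median of 0.09. Ier3 had the largest difference in that list and the only one past 1.5-fold, with 82.1 for DEF/FOS and 21.2 for DEF/CT, or 3.91-fold. Fos had 792 and 600, Atf3 118 and 88.7, and Junb 128 and 182. Nr4a2 had 28.0 and 30.7. Nr5a2 (LRH-1) had 399 and 464, 1.15-fold lower, and its 3 probe sets above the floor were all negative but of unequal size, from -0.95 to -0.11. Nr0b2 (SHP), which has no DNA-binding domain and represses other receptors, LRH-1 among them, had 523 and 633, 1.20-fold lower. Nr6a1, a germ cell receptor, had 56.8 and 70.9, with all 3 probe sets above the floor negative.

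Where several probe sets of a receptor lay above the floor, their signs agreed in 6 of 16 genes, 37.5%, against 49.3% of 4885 such genes overall. The 6 were Ppara, Rxra, Hnf4a, Nr2f2, Nr5a2 and Nr6a1. For 15 further genes 1 probe set above the floor was all there was.

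The known target genes of the receptors were then set beside the receptors themselves, from lists written with earlier results of these arrays in view. Targets of PPARα had higher signal in the DEF/FOS pool in 13 of the 14 measured genes, and 6 of 14 were at least 1.5-fold higher, where 6.75% of all genes were. Their median difference was 0.54, against 0.00 over all genes, while Ppara itself was at -0.42. The omega-hydroxylase Cyp4a14 had 6061 and 438, the acyl-CoA thioesterase Acot1 987 and 298, the peroxisomal enzyme Ehhadh 4955 and 1992, and the pantetheinase Vnn1 1700 and 714. Fgf21, the fasting hormone of the liver, had 267 and 141. Cpt1a, which admits fatty acids to mitochondria, had 1579 and 1406.

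Targets of CAR and PXR had positive differences in 11 of 12 genes above the floor, 7 of them at least 1.5-fold, where 6.75% of all genes were. The median was 0.76, beside 0.32 for Nr1i3 and -0.23 for Nr1i2. The glutathione transferases Gstm3 (2686 against 540) and Gsta2 (1795 against 362), the stress gene Gadd45b (120 against 39.7) and the epoxide hydrolase Ephx1 (4583 against 1800) led the list, and some of these are also targets of NRF2. The 3 probe sets of Gadd45b were all positive but of very unequal size, from 0.33 to 4.44. Cyp2b10, the classical CAR target, lay below the floor in both pools at 15.3 and 7.92. Cyp3a11, the classical PXR target, had 9896 and 8265, a difference of 0.27.

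**Figure D4:**
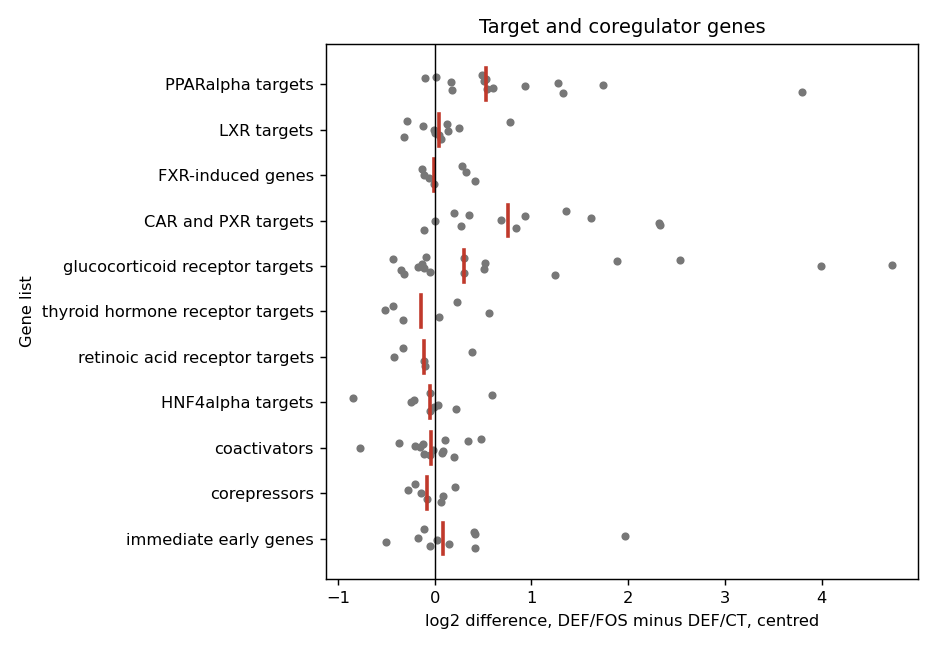
Centred log2 difference (DEF/FOS minus DEF/CT) of the genes above the floor in 11 lists of receptor targets, coregulators and immediate early genes, without the 3 genes repressed through SHP; each grey point is a gene and each red bar the list's median. The medians of the PPARα list (0.54) and of the CAR and PXR list (0.76) lie to the right of the other medians shown, which run from -0.14 to 0.30.

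Targets of the glucocorticoid receptor went both ways, with 9 positive and 8 negative differences and 5 of 17 at least 2-fold higher, where 1.74% of all genes were, beside -0.18 for Nr3c1. The metallothioneins Mt2 (1706 against 65.6) and Mt1 (2454 against 156), the cell cycle inhibitor Cdkn1a (309 against 84.8), the iron-carrier-binding protein Lcn2 (120 against 20.9) and the chaperone partner Fkbp5 (254 against 109) were the 5. Lcn2 is also a neutrophil gene. In contrast Tsc22d3, another glucocorticoid-induced gene, had 253 and 319, and Pck1, the entry enzyme of gluconeogenesis, 3819 and 4913.

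In the lists tied to the sterol and bile acid receptors, most differences were small. LXR targets had a median of 0.04 over 11 genes. Of these, 1 was past 1.5-fold, on the higher side, where 6.75% of all genes were: the phospholipid transfer protein Pltp at 1380 against 814. Next in size were the sterol exporter Abcg1 at 84.3 and 106, Smpdl3a at 255 and 315 and the fatty acid synthase Fasn at 3187 and 2706. Abca1 had 2129 and 2056 and Srebf1 1170 and 1074. Genes induced by FXR had a median of -0.01 over 7 genes above the floor, with the bile salt pump Abcb11 at 3186 and 3232 and the phospholipid flippase Abcb4 at 2032 and 1533. Apoc2 had 3427 and 2779, Sqstm1 2732 and 2276, and Fetub 2172 and 2409. The 3 listed genes that SHP represses had a median of -0.35 and differed in direction: Cyp7a1 was 1.49-fold higher for DEF/FOS (449 against 303), Cyp8b1 1.88-fold lower (762 against 1446) and the bile acid importer Slc10a1 1.28-fold lower (4109 against 5303).

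Targets of HNF4α had a median of -0.05 over 9 genes, beside 0.25 for Hnf4a, with the liver pyruvate kinase Pklr 1.80-fold lower and Apoa4 1.51-fold higher. The urea cycle enzyme Otc had 3464 and 4158, and Apob, the structural protein of lipoproteins, 2980 and 2579. Thyroid hormone targets had a median of -0.14 over 6 genes. Of these, Klf9 had 2092 and 2857 with all 6 probe sets above the floor negative, Thrsp, a lipogenic gene, 2337 and 2963, and malic enzyme Me1 4225 and 2893. Hr, near the floor, had 16.3 and 23.5. Retinoic acid receptor targets had a median of -0.11 over 5 genes, with the retinal reductase Dhrs3 at 630 and 853 and the transglutaminase Tgm2 at 911 and 705. Lrat, which stores retinol as esters, had 119 and 151, and the retinoic acid hydroxylase Cyp26b1 49.8 and 54.5.

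Coregulators, the proteins through which receptors switch genes on or off, were read in the same way. Coactivators had a median of -0.04 over 14 genes and corepressors one of -0.08 over 7, with 1 of these 21 genes past 1.5-fold, on the lower side, where 7.82% of all genes were. That gene was Ppargc1b (PGC-1β), a coactivator of mitochondrial and lipogenic genes, 1.70-fold lower at 136 against 234. Its relative Ppargc1a (PGC-1α) had 102 and 105, and the coactivator and phosphatidate phosphatase Lpin1 1461 and 1062. The arginine methyltransferases Carm1 and Prmt1 had 145 and 190, and 147 and 117. The largest differences among corepressors were -0.28 for Sin3a, 0.21 for Nrip1, -0.20 for Lcor and -0.14 for Gps2.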

How the data were processed

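The authors deposited a linear MAS5 signal intensity for each of 45101 probe sets (64 of them array controls), made with MAS5 and GCOS, per the submitters' processing notes, which give no version. After trimming 2% of the signals at either end, each array had a mean of 100.0, so the authors had scaled both alike. Detection calls, background values and the settings used are not given in the sources used here. Of 35890 annotated probe sets, 34958 had 1 gene symbol and 932 had several, which were not used. Entrez identifiers matched a RefSeq gene table (GRCm38.p6) for 34754, and 0 symbols changed.

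Differences were centred by subtracting their median, -0.01 on the log2 scale. Folds come from the centred differences. From each list the genes with the 4 largest absolute differences above the floor were named. For cell markers the rule allowed up to 3 names. These are given for hepatocytes, and the other markers are given by list. Alb, Camp, Ltf, Cpt1a, Fgf21, Cyp2b10, Cyp3a11, Fkbp5, Tsc22d3, Pck1, Abca1, Srebf1, Abcb11 and Ppargc1a were named outside that rule, after their values were seen. The members and the lists were chosen with earlier results of these data known. With 1 array per group no test was run. The number of arrays limits the precision. The counting was run on simulated data with known folds and little noise, which checks the arithmetic and not the scatter of these arrays. Python 3.11.15, NumPy 2.4.6, pandas 2.3.3, SciPy 1.17.1 and Matplotlib 3.10.9 were used. Alternatives covered centring, quantile normalization, the floor, an offset, and the choice of probe sets.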

Additional observations from a re-analysis of the deposited data

How the results depend on the processing

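The median receptor difference stayed between -0.22 and -0.11 over the 8 alternatives, and the receptors with lower signal in the DEF/FOS pool made up 61.3% (the median over probe sets) to 83.3% (a floor at the 75th percentile) of those counted. The numbers at least 1.5-fold higher and lower, 2 and 2, were 4 and 5 of 37 with no floor and 0 and 0 both with a floor at the 75th percentile (18 genes) and with an offset of 32. Without centring 1 gene was higher, as Rxrg dropped out. Without probe sets marked _x_ or _s_ 1 was lower, as Esrrb then had no probe set above the floor. Without Esrrg, Rxrg and Nr4a3, receptors also expressed in muscle, 1 gene was higher (a count added after seeing the data); none of these 3 was among the lower genes, so that count could not change. Of the 31 receptors 25 kept their sign in every alternative that held them. The median over probe sets could not change the sign of the 15 receptors with 1 probe set above the floor. Thra, Nr2c2, Nr2f6, Esr1 and Esrra changed sign with the median over probe sets, and Rarb without centring. Of the 10 brightest receptors 7 stayed among the 10 when all probe sets were averaged. Quantile normalization gave the same counts of receptors, while the share of higher genes among all genes past 1.5-fold was 50.2% against 46.3%, and 53.5% with the floor at the 75th percentile. No paired analysis was possible because each group has 1 array, and for the same reason no array could be left out. Differences of dim receptors are limited by their signal over the floor.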
